A study of Danio rerio with 8 samples.

Results

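The comparison described here sets the whole ovary of adult zebrafish fed 40 ppb TCDD against the ovary of fish fed the solvent alone. Its members are the 4 arrays of the 40 ppb and 0 ppb pools, out of 8 arrays in all, chosen by their sample labels. TCDD (2,3,7,8-tetrachlorodibenzo-p-dioxin) is a persistent chlorinated pollutant, and ppb means ng of tritium-labelled TCDD per g of feed. All fish were females of the AB strain, aged 6-8 months, housed apart from males and spawned weekly, and were fed trout chow for 15 days. The exposed group ate chow carrying 40 ppb TCDD, and the control group ate chow treated with acetone that had been evaporated. For each dose the RNA of 5 fish, in equal amounts of 3 µg, made up 1 pool, which was hybridised to 2 Affymetrix Zebrafish arrays. The other pools of the series received 10 and 100 ppb. Their arrays share in the normalization, the choice of probe sets to test and the error estimate of every test. Their own values are given below mainly where the 40 ppb pool was tested against them.

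Because a dose is 1 pool on 2 technical arrays, the p-values speak of array-to-array variation and not of variation between fish. With 2 arrays against 2, an exact permutation test of a single gene cannot give a p below 0.333, so the tests below come from a model fitted over all probe sets. Values are log2(intensity + 16) after quantile normalization, differences are 40 ppb minus 0 ppb on that scale with their SE, and n is 2 arrays per pool throughout. A difference of 1 on this scale is 2-fold, and the change of dim probe sets is understated. The control and 40 ppb pools both had their replicate 1 array scanned on one day (day 2) and their replicate 2 array on another (day 3), so each day gave its own difference. Below, 4 values of a gene are given in the order control day 2, control day 3, 40 ppb day 2 and 40 ppb day 3.

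TCDD acts through the aryl hydrocarbon receptor, a transcription factor held in the cytosol by heat shock protein 90 until a ligand binds. The receptor then moves to the nucleus, pairs with its partner Arnt and activates genes such as cyp1a, which encodes a cytochrome P450 of xenobiotic metabolism. In fish the receptor that carries most of the dioxin response is Ahr2. A whole ovary holds oocytes at several stages, the granulosa and theca cells around them, the surface epithelium, smooth muscle, vessels and blood cells, and the arrays read all of these together.

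Both pools read as ovary. All 6 oocyte markers on the array were tested, namely bmp15, buc, ddx4, dazl, nobox and zar1, and none passed the test, with differences from -0.41 to 0.26. Their summed normalized intensity was 7307 and 7764 in the control pool and 8054 and 8060 at 40 ppb. Of 3 testis markers none reached the level required for testing. The granulosa and theca markers were dim: the aromatase gene cyp19a1a and gsdf were tested, while amh, fshr and star lay under the filter. The arrays of each pool correlated at r = 0.992 over all 15502 probe sets, although probe sets are not independent of each other. The deposited intensities differed in overall level, with medians of 62.25 and 28.7 for the control arrays and 57.4 and 36.7 for the 40 ppb arrays.

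Few probe sets were called between the pools, and most of these were lower at 40 ppb. Of 15502 probe sets, 9301 were bright enough to be tested, and 32 of these (0.344%) differed by at least 1 with a limma adjusted p under 0.05. Only 4 probe sets (0.043%) were higher at 40 ppb and 28 (0.301%) were lower. Without the minimum difference 57 probe sets (0.613%) passed, 11 higher (0.118%) and 46 lower (0.495%). Normalization holds the middle of the distribution near 0, and the median difference over all tested probe sets was 0.0079, with the 5th and 95th percentiles at -0.37 and 0.38. Before adjustment, 546 higher and 538 lower probe sets had a p under 0.05, so the excess of falls was in the largest differences. Among all tested probe sets, 36 fell by 1 or more and 7 rose by as much. The called falls had mean values over all 8 arrays between 5.13 and 10.86.

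**Figure D1:**
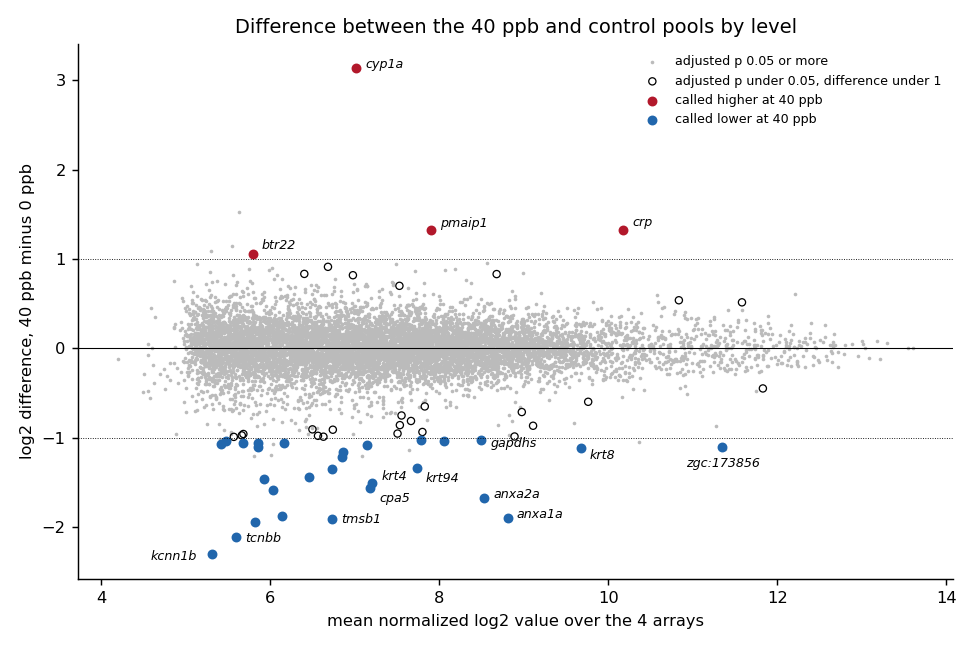
Each point is 1 of 9301 tested probe sets, placed by its mean normalized log2 value over the 4 arrays (x) and its log2 difference, 40 ppb minus 0 ppb (y). Red points are the 4 called higher, blue points the 28 called lower, open circles passed the adjusted p with a difference under 1, and dotted lines mark 1 and -1; cyp1a stands alone at the top with 3.13.

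The 32 called probe sets belonged to 4 genes that were higher and 23 that were lower, besides 1 probe set with several symbols and 3 with none, and they stood outside the array spread of both pools. On every one of them both 40 ppb arrays lay on the same side of both control arrays, with a gap of 0.78 to 2.88 between the pools. Among all tested probe sets 47.8% had pools that did not overlap, so the absence of overlap alone distinguishes little. All 32 moved the same way on both scan days, which must hold for any probe set whose pools do not overlap. Of the 32, 24 reached 1 on day 2 and 27 on day 3, on the same arrays that chose them. Scan day as a replicate block could not alter the differences, because both pools had 1 array on each of the same days. The fit with this block called 41 probe sets, among them all 32. Without the minimum difference that blocked fit passed 432 probe sets in place of 57, with 197 higher and 235 lower. The fit without the 10 ppb pool passed 223, with 86 higher and 137 lower, beside 11 and 46 in the main fit. Neither fit takes the spread between the 10 ppb arrays into its error. In the first, 10 ppb replicate 1 was alone on its day, and the second leaves that pool out. Calls were fragile with fewer arrays, although leaving out 1 array cannot turn the sign of a probe set whose pools do not overlap. Without control replicate 1 or replicate 2, 11 and 8 probe sets were called, and without 40 ppb replicate 1 or replicate 2, 7 and 12, with the 32 keeping their direction wherever they were tested. Of the 28 called probe sets with a single gene symbol, 5 were called in all 4 of these fits, those of anxa1a, anxa2a, tmsb1, one of ctsl.1 and one of zgc:173856. Leaving out these arrays in that order ended 17, 20, 21 and 17 of the 28 calls, and 15 genes lost theirs in each fit, among them kcnn1b, s100a10b, cpa5, krt18b, tagln2, cebpa, bhlhe40, marco and gapdhs. A second probe set of ctsl.1 was tested only without 40 ppb replicate 1 or 2, with differences from -1.97 to -1.92. Without control replicate 1 or 2 its mean fell under the filter, so those fits could not test its call. In the deposited scaling, which leaves the arrays' overall levels unequal, 4 probe sets were called, 1 higher (cyp1a) and 3 lower (tcnbb, ctsl.1 and kcnn1b), so 25% of calls were higher there against 12.5% after normalization.

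**Figure D2:**
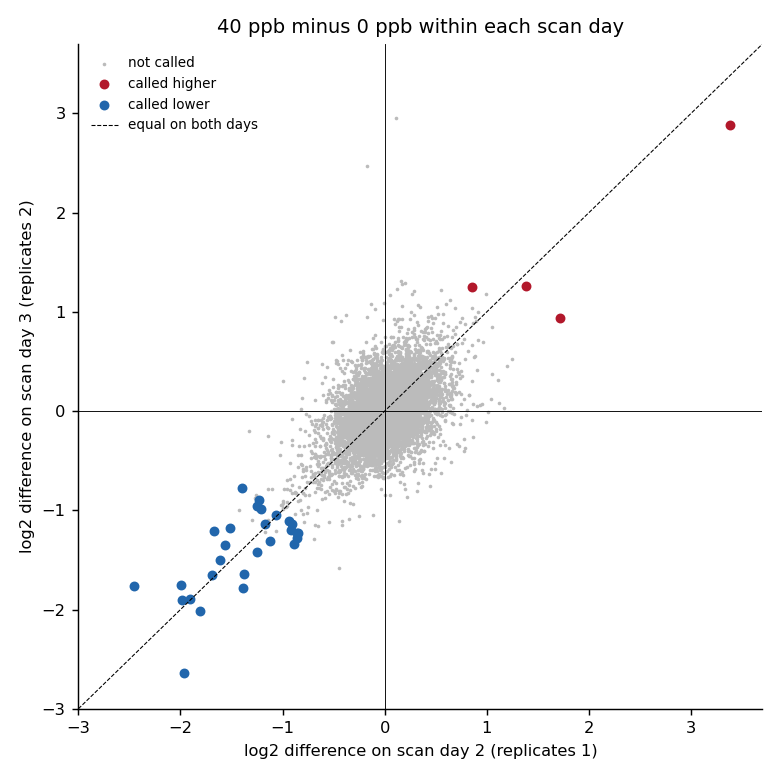
The log2 difference, 40 ppb minus 0 ppb, of each tested probe set on scan day 3 (y, replicates 2) against scan day 2 (x, replicates 1), with called probe sets in red (higher) and blue (lower) and the dashed line marking equal values. All 32 called probe sets sit in the lower left or upper right quadrant, as any probe set whose pools do not overlap must.

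Of the 9 tested genes of the aryl hydrocarbon receptor pathway, only cyp1a passed. Its normalized values were 5.37 and 5.53 in the control ovary and 8.75 and 8.41 at 40 ppb, so the dimmest exposed array exceeded the brightest control array by 2.88. The difference was 3.13 ± 0.32, or 8.78-fold on this scale (adjusted p = 0.00211), with 3.38 on day 2 and 2.88 on day 3. Without 40 ppb replicate 1 the call was lost, at an adjusted p of 0.0586. No other of the 9 tested pathway genes passed, and the median difference of the 9 was 0.06, beside 0.01 for the 6335 tested genes with 1 symbol. Of those 6335 genes 10 passed higher.

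The rest of the pathway gave these values. The receptor gene ahr2 read 5.48 and 5.32 against 5.91 and 5.48, a difference of 0.30 (adjusted p = 0.607), with the second exposed array level with the first control array. The target tiparp, an ADP-ribosyltransferase gene that in mammals restrains the receptor, read 6.50 and 6.43 against 6.95 and 6.55, a difference of 0.29. The quinone reductase gene nqo1 differed by -0.02 and the antioxidant regulator gene nfe2l2a by 0.06. The chaperone genes of the receptor complex were near 0 as well, with -0.15 for hsp90ab1, -0.06 for ptges3a and 0.24 for ptges3b, while sox9b, a cartilage and gonad regulator gene known as a dioxin-repressed gene in zebrafish embryos, differed by -0.29. Of 22 genes listed for the pathway, 13 had a probe set with 1 symbol on the array, and 9 of these were tested. Those too dim to be tested included cyp1c1, ahr1a and arnt2.

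Of 14 tested annexin and S100 genes 3 fell, namely anxa1a, anxa2a and s100a10b. Annexins bind membrane phospholipids when calcium is present, and S100A10 is the small protein that forms a complex with annexin A2. anxa1a read 9.80 and 9.72 in control ovary and 7.90 and 7.83 at 40 ppb, a difference of -1.90 ± 0.13 or 3.73-fold lower (adjusted p = 0.000166). It has the smallest adjusted p of the comparison, and the day differences were -1.90 and -1.89. anxa2a read 9.42 and 9.32 against 7.72 and 7.67, a difference of -1.67 ± 0.14 (adjusted p = 0.000634). Its partner gene s100a10b read 8.37 and 8.22 against 7.43 and 7.11, a difference of -1.03 ± 0.18 (adjusted p = 0.0352). The arrays of the pools did not overlap for any of the 3 genes, which holds for every called probe set, but s100a10b lost its call without any one of the 4 arrays. The other 11 tested genes of the list did not pass: s100a1 differed by -0.04 and anxa5b by -0.09, and the list's median was -0.14 with 3 of 14 genes lower, where 36 of all 6335 tested genes with 1 symbol were. In a pool of whole organs, fewer cells of a type and less RNA per cell cannot be told apart.

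Of 8 tested keratin genes 5 fell, and of 12 claudin, cadherin, epcam and tight junction genes on the same list none passed; the difference between these groups was not tested. Keratins form the intermediate filaments of epithelial cells, in which type II members such as krt8 pair with type I members such as krt18. krt4 read 7.78 and 8.14 against 6.41 and 6.50, a difference of -1.51 ± 0.19 (adjusted p = 0.00612). krt94 read 8.28 and 8.52 against 7.04 and 7.09, a difference of -1.34 ± 0.14 (adjusted p = 0.00227). The exposed arrays of krt94 lay within 0.06 of each other and 1.19 below the lower control array. krt18b read 7.46 on both control arrays against 6.34 and 6.15, a difference of -1.21 ± 0.16 (adjusted p = 0.00871). krt8, the brightest of the group, read 10.04 and 10.42 against 9.15 and 9.09, a difference of -1.11 ± 0.15 (adjusted p = 0.00871). Its type I partner krt18a.1 passed the adjusted p just under the minimum size, reading 9.37 and 9.40 against 8.38 and 8.42, a difference of -0.99 ± 0.15 (adjusted p = 0.0155). In the RefSeq gene order krt8 stands next to krt18a.1, and krt4 lies 2 places from krt18b.

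All 8 tested keratin genes had negative differences, with a median of -1.05; krt91 (-0.95, adjusted p = 0.113), krt15 (-0.57) and krt5 (-0.40) did not pass. The 3 tested desmosome and plaque genes of the list did not pass, with the desmoplakin gene dspa at -0.68 (adjusted p = 0.112), jupa at -0.34 and ppl at 0.14. Outside the list, pkp1b, a plakophilin gene of the desmosome, fell from 5.84 and 6.06 to 4.98 and 4.78, a difference of -1.07 ± 0.19 (adjusted p = 0.035), a call lost without any one of the 4 arrays. The 12 tested claudin, cadherin, epcam and tight junction genes had a median of 0.11, with 9 of them above 0 and 3 below, from -0.63 to 0.46. The epithelial adhesion gene epcam read 11.85 and 12.37 against 12.10 and 12.44 on its brighter probe set, with pools that overlap. The E-cadherin gene cdh1 read 8.89 and 8.75 against 9.38 and 9.17, a difference of 0.46 (adjusted p = 0.187), and the claudin gene cldnd 12.56 and 12.31 against 12.84 and 12.54. Of the whole list of 23 tested genes, 5 passed lower and none higher, with a median of -0.19, where 36 of all 6335 tested genes passed lower and 10 higher, with a median of 0.01. With scan day as a replicate block, krt91, dspa and cdh1 passed as well, at adjusted p of 0.00521, 0.0317 and 0.0309. Leaving out control replicate 1 or 2 left 3 and 0 of the list's genes lower, and leaving out 40 ppb replicate 1 or 2 left 0 and 1. The summed normalized intensity of 7 epithelial markers overlapped between the pools, at 6063 and 7992 in the control and 5969 and 7051 at 40 ppb. Most of that sum came from epcam, and cldne was too dim to be tested. The mean log2 values of the 7 markers did not overlap, at 8.26 and 8.35 in the control and 7.79 and 7.83 at 40 ppb. Of the 7, 5 were lower, among them krt4, krt8 and krt18a.1 described above.

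**Figure D3:**
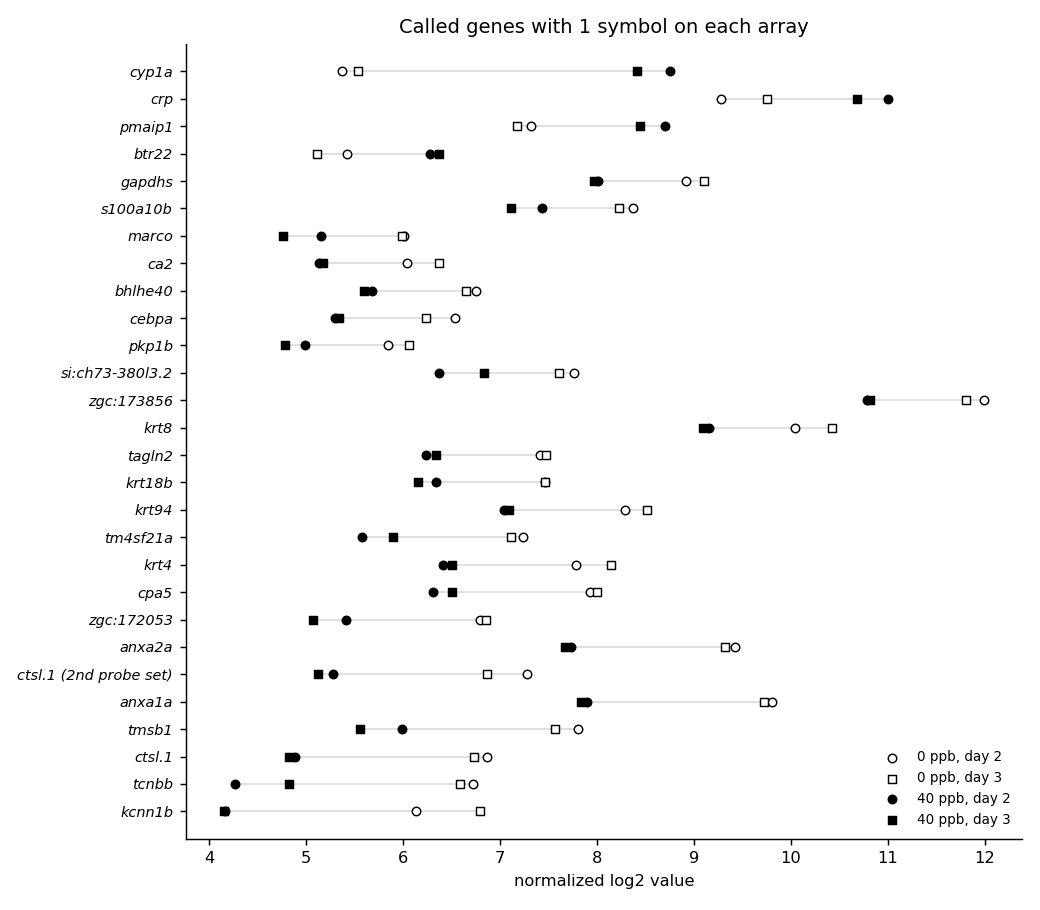
Normalized log2 value (x) of the 28 called probe sets with 1 gene symbol on each of the 4 arrays, ordered by difference, with open symbols for control, filled symbols for 40 ppb, circles for day 2 and squares for day 3. Open and filled symbols are separated on every line.

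Genes of the actin cytoskeleton gave 2 called falls. tmsb1, a beta-thymosin gene whose protein binds monomeric actin, read 7.80 and 7.57 against 5.99 and 5.56, a difference of -1.91 ± 0.19 or 3.76-fold lower (adjusted p = 0.0015). tagln2, a transgelin gene, read 7.41 and 7.47 against 6.24 and 6.33, a difference of -1.16 ± 0.20 (adjusted p = 0.0329). The pools lay at least 1.08 apart for both. Of the other 19 tested genes of the list none passed, and 18 of all 21 were below 0, with a median of -0.28, where 3085 of all 6335 genes were below 0. Of those 6335 genes 36 passed lower. The second thymosin gene tmsb4x read 11.15 and 10.99 against 10.74 and 10.52, a difference of -0.44 (adjusted p = 0.208). It was lower without overlap, as 23.3% of all tested probe sets were. The smooth muscle genes acta2 and tagln differed by -0.46 and -0.55, the tropomyosin gene tpm4a by -0.72 and the calponin gene cnn3a by -0.63. With scan day as a replicate block 8 of the 21 passed, where 432 of all 9301 tested probe sets did. Among the 8 were acta2, tagln, tmsb4x, tpm4a and cnn3a. The beta-actin genes actb1 and actb2 differed by -0.01 and -0.02. Summed over the 3 smooth muscle markers on the array, the normalized intensity was 415 and 403 in the control pool and 287 and 273 at 40 ppb, and desma was too dim to be tested; the part of muscle content in the differences was not tested.

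The genes ctsl.1, tcnbb and kcnn1b fell. ctsl.1, a cathepsin L family gene, was called on both of its probe sets. The brighter read 7.27 and 6.86 against 5.28 and 5.12, a difference of -1.87 ± 0.20 (adjusted p = 0.00211), and the other read 6.86 and 6.73 against 4.88 and 4.82, a difference of -1.94 ± 0.18 (adjusted p = 0.00149). On this dimmer probe set 1 exposed array lay below the tag controls, which are probe sets that match no zebrafish transcript. No other of the 13 tested cathepsins and cathepsin inhibitors passed, and the abundant ctsba and ctsla differed by 0.20 and 0.15. tcnbb, a transcobalamin gene of vitamin B12 transport, read 6.72 and 6.58 against 4.27 and 4.82, a difference of -2.11 ± 0.23 (adjusted p = 0.00263). For tcnbb too 1 exposed array lay below the tag controls. kcnn1b, a calcium-activated potassium channel gene, read 6.14 and 6.79 against 4.17 and 4.15. Both exposed arrays lay below the tag controls, so the gene was at least 3.10-fold lower (adjusted p = 0.0422). It was the only tested gene of the neural list that passed, of 10, where 36 of all 6335 tested genes with 1 symbol passed lower.

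Of the leukocyte genes 2 fell past the minimum size, and most others had small negative differences. cpa5, a carboxypeptidase gene of zebrafish mast cells, read 7.92 and 8.00 against 6.31 and 6.50, a difference of -1.56 ± 0.24 (adjusted p = 0.0205). marco, a scavenger receptor gene of macrophages, read 6.01 and 5.99 against 5.15 and 4.76, a difference of -1.04 ± 0.19 (adjusted p = 0.0464). Neither pair of pools overlapped, which holds for every called probe set. Both genes differed by more on the log2 scale than the 0.40 that separated the marco arrays at 40 ppb. Of 11 tested leukocyte genes 2 passed lower and 10 were below 0, with a median of -0.47, where 36 of all 6335 genes passed lower and 3085 were below 0. The values were -0.69 for ncf1, -0.62 for lcp1, -0.62 for cebpb and -0.47 for coro1a, none of which passed. The exception was the lysozyme gene lyz, at 5.65 and 5.62 against 6.19 and 6.23, a difference of 0.58 (adjusted p = 0.162). With scan day as a replicate block, ncf1, lcp1 and cebpb passed lower and lyz passed higher (adjusted p = 0.0407). The 9 leukocyte markers on the array summed to a normalized intensity of 702 and 641 in the control pool and 395 and 369 at 40 ppb. Of these 8 were lower, while ptprc and mpx were too dim to be tested. The 9 include cpa5 and marco, so their sum is not separate from the 2 calls above. The part of leukocyte content in these results was not tested. Without any single one of the 4 arrays, no leukocyte gene passed.

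Among red blood cell genes, 1 of 5 tested passed, where 36 of all 6335 tested genes with 1 symbol passed lower. Of the 5, 3 were below 0 and 2 above, with a median of -0.02. ca2, a carbonic anhydrase gene, read 6.04 and 6.37 against 5.13 and 5.17, a difference of -1.06 ± 0.17 (adjusted p = 0.0242), while its other, dimmer probe set differed by 0.29 and was not tested. On the called ca2 probe set, leaving out single arrays of the 2 pools gave differences from -1.22 to -0.89. The alpha globin gene hbaa1, at 8.46 and 8.58 against 8.76 and 8.61, differed by 0.17 and did not pass.

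A pair of regulator genes and a glycolytic enzyme gene also fell. cebpa, a transcription factor gene of myeloid and liver cells, read 6.53 and 6.23 against 5.30 and 5.34, a difference of -1.06 ± 0.20 (adjusted p = 0.0464). bhlhe40, a repressor gene tied to the circadian clock, read 6.75 and 6.64 against 5.68 and 5.60, a difference of -1.06 ± 0.15 (adjusted p = 0.0118). gapdhs, which encodes a glyceraldehyde-3-phosphate dehydrogenase, read 8.92 and 9.11 against 8.01 and 7.97, a difference of -1.02 ± 0.13 (adjusted p = 0.00746). The array carries 3 further control probe sets annotated to gapdhs, left out of the test. They differed by -0.91, -0.85 and -0.71 from 3' end to 5' end, lower without overlap, as 23.3% of tested probe sets were. Their ratio of 3' to 5' signal, a measure of RNA integrity, was 1.38 and 1.34 in the control pool and 1.23 and 1.16 at 40 ppb; its part in the fall was not tested. No other of the 24 tested glycolysis genes passed, and the list's median was -0.14, where 36 of all 6335 tested genes with 1 symbol passed lower.

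The remaining called falls have less well known products. tm4sf21a, a gene of the L6 tetraspan family, read 7.24 and 7.11 against 5.57 and 5.90, a difference of -1.44 ± 0.24 (adjusted p = 0.0302). zgc:172053 read 6.79 and 6.85 against 5.41 and 5.07, a difference of -1.58 ± 0.17 (adjusted p = 0.00221). si:ch73-380l3.2 read 7.76 and 7.60 against 6.36 and 6.83, a difference of -1.09 ± 0.19 (adjusted p = 0.0406). zgc:173856 was called on 1 of its 4 probe sets, at 11.99 and 11.81 against 10.78 and 10.82 (-1.10 ± 0.09, adjusted p = 0.000634), while the others differed by -0.13, -0.03 and 0.33, so its probe sets disagree.

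Increases beyond cyp1a were called for 3 genes. crp, an acute phase pentraxin gene, read 9.28 and 9.75 against 10.996 and 10.68, a difference of 1.32 ± 0.17 or 2.50-fold (adjusted p = 0.00746). pmaip1, which encodes the proapoptotic Bcl-2 family protein Noxa, read 7.31 and 7.18 against 8.70 and 8.44, a difference of 1.32 ± 0.17 (adjusted p = 0.00746). A second pmaip1 probe set, at 7.52 and 7.43 against 7.95 and 7.78, gave 0.39 (adjusted p = 0.316), in the same direction. It was higher without overlap, as 24.5% of all tested probe sets were. btr22, of a fish-specific family of tripartite motif genes, read 5.42 and 5.11 against 6.27 and 6.36, a difference of 1.05 ± 0.16 (adjusted p = 0.0183). crp lost its call without control replicate 1 or 40 ppb replicate 1, and pmaip1 and btr22 lost theirs without any of the 4 arrays. pmaip1 was the only one of 17 tested apoptosis genes to pass, with mdm2 at 0.17 and the list's median at 0.07. crp was likewise the only one of 21 liver and plasma protein genes to pass. Of all 6335 tested genes with 1 symbol, 10 passed higher and 36 lower.

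A further group passed the adjusted p with differences under 1. Lower in this group were moxd1 (-0.99), the RNA helicase gene ddx52 (-0.99), the mitochondrial carrier gene slc25a55a (-0.98), si:dkey-102g19.3 (-0.97), the water and glycerol channel gene aqp3a (-0.96) and the mitochondrial dehydrogenase gene hsd17b10 (-0.95). Smaller falls were those of zpd (-0.93), the galectin gene lgals2a (-0.91), wu:fb55g09 (-0.87), the sodium pump subunit gene atp1b1a (-0.75), the translocon gene sec61a1a (-0.71), the glutathione transferase gene gsto2 (-0.60) and zgc:153499 (-0.45). Higher were cln6a (0.83), the chromatin gene dek (0.83), jkamp (0.82), the complement gene c7b (0.70), the monocarboxylate transporter gene slc16a3b (0.54) and the mitotic cyclin gene ccnb2 (0.52). hsd17b10 was among the tightest, at 8.01 and 7.95 in the control pool against 7.06 and 7.00 at 40 ppb, with -0.95 on each day. ccnb2 was bright, at 11.31 and 11.34 against 11.86 and 11.82, and was the only gene of the cell cycle list (44 tested) and of the oocyte and germ line list (33 tested) to pass. The egg coat gene zpd, which passed lower (adjusted p = 0.0177), was on neither list. Of all 6335 tested genes with 1 symbol, 10 passed higher and 36 lower.

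Yolk protein genes read lower at 40 ppb without passing. Vitellogenins are the yolk precursors that the liver secretes under oestrogen and oocytes take up. vtg2 read 10.75 and 11.04 against 9.49 and 10.20, a difference of -1.05 ± 0.44 (adjusted p = 0.387). vtg4 read 9.11 and 9.50 against 8.14 and 8.53, a difference of -0.97 (adjusted p = 0.304), and vtg3 7.52 and 7.44 against 6.56 and 6.75, a difference of -0.83 (adjusted p = 0.189). The 40 ppb pool lay below the control pool without overlap for each of them, as for 23.3% of all tested probe sets. With scan day as a replicate block vtg2, vtg4 and vtg3 passed, at adjusted p of 0.000501, 0.000695 and 0.00863. The transferrin gene tfa, at 7.62 and 7.74 against 6.33 and 6.64, gave a difference of -1.20 that did not pass without the block (adjusted p = 0.0856) and passed with it (adjusted p = 0.000197). The haptoglobin gene hp likewise passed with the block alone (-1.19, adjusted p = 0.266 and 0.00111 with the block). The tfa arrays of the 10 ppb pool read 11.65 and 10.63. Of 21 tested liver and plasma protein genes 17 were below 0, with a median of -0.28, beside the same 3085 of 6335 genes. The 10 liver markers summed to a normalized intensity of 461 and 507 in the control pool and 256 and 300.2 at 40 ppb, and their part in the vitellogenin values was not tested. The 10 include tfa, so their sum is not separate from the tfa difference above. Of the 10 markers 9 were below 0, with a median of -0.39, and none passed.

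Sex steroid synthesis gave no call. The aromatase gene cyp19a1a read 5.65 and 5.55 against 5.94 and 5.61, a difference of 0.18 ± 0.19 (adjusted p = 0.768), and cyp17a1 8.92 and 9.07 against 8.99 and 8.73, a difference of -0.14 ± 0.16. hsd3b2, for progesterone synthesis, differed by 0.24 and the electron carrier gene fdx1 by 0.26, both without overlap and without passing. Among all tested probe sets 24.5% were higher without overlap. Of the 8 tested genes 4 were on either side of 0.

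**Figure D4:**
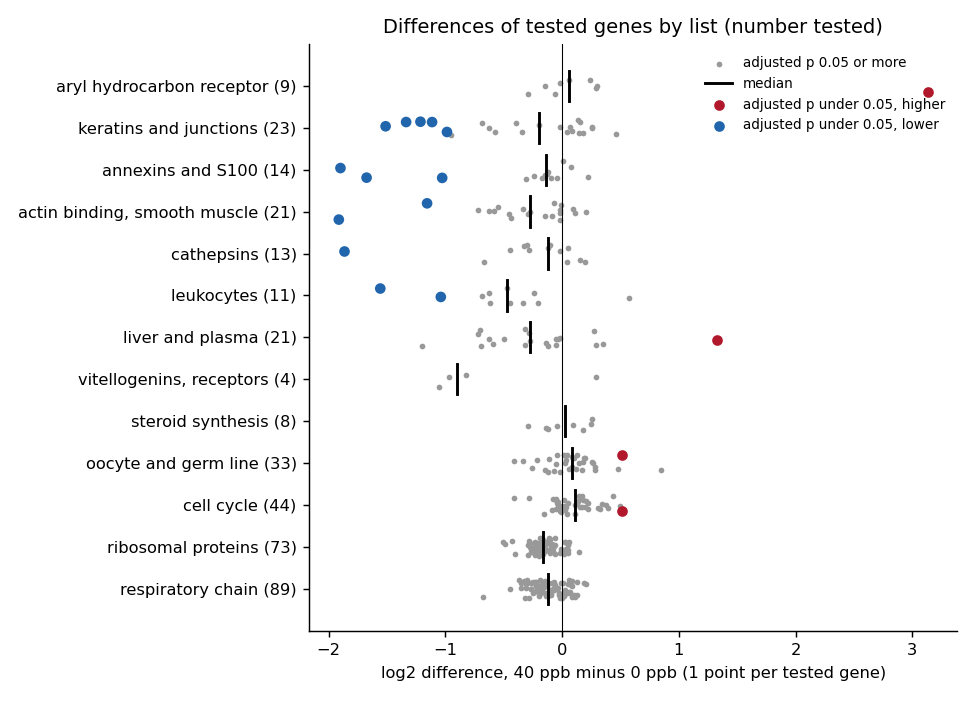
The log2 difference, 40 ppb minus 0 ppb (x), of every tested gene of 13 lists, with the number tested in brackets, grey for adjusted p of 0.05 or more, red and blue for genes that passed higher and lower, and a black bar at each list's median. The keratin, annexin, actin and leukocyte lists hold their passing genes on the left, and the ribosomal and respiratory chain lists hold none.

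The core machinery of the cell gave no called gene. Of 73 ribosomal protein genes 62 were below 0 with a median of -0.16, against 3085 of 6335 genes and a median of 0.01 overall; the median was -0.05 with each array scaled by its trimmed mean, and 0.11 in the deposited scaling, where the median of all probe sets was 0.136. The 89 respiratory chain genes had a median of -0.12 (0.05 in the deposited scaling), the 57 translation factor genes -0.09 (0.09) and the 77 proteasome genes 0.02 (0.17), and none of these passed. With scan day as a replicate block 5 ribosomal, 4 respiratory chain and 4 translation factor genes passed lower, where 235 of all 9301 tested probe sets did. Oocyte and germ line genes had a median of 0.08, with 22 of 33 above 0, and the cell cycle list 0.11, with 29 of 44 above 0. Both medians were above 0 in the alternatives that left out no single array. Among these is the deposited scaling, where the median of all probe sets was itself 0.136. No gene passed among 62 heat shock and folding genes, 24 extracellular matrix genes, 26 growth factor genes, 9 prostaglandin synthesis genes, 13 retinoid genes, 11 lipid transport genes or 3 coagulation genes. The oxidative stress list had 1 lower gene of 36 (gsto2), the glycan list 1 lower of 18 (lgals2a) and the solute carrier list 1 higher and 1 lower of 83. Of all 6335 tested genes with 1 symbol, 36 passed lower and 10 higher. With the replicate block, the retinol binding gene rbp2a (-1.07, adjusted p = 0.057 and 0.0124 with the block), the acetylcholine receptor gene chrnb3b (-1.01, 0.123 and 0.0432) and the tripartite motif gene ftr81 (1.09, 0.101 and 0.00521) were called too, and the apolipoprotein gene apoc1 (-0.81) passed at 0.00249.

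The 40 ppb pool was then tested against the 100 ppb pool, which leaves the shared control out. There 40 probe sets (0.43%) were called, 15 higher and 25 lower (0.269%) at 100 ppb, and 83 (0.892%) passed the adjusted p alone. Of the 32 probe sets called at 40 ppb against control, 3 were lower at 100 ppb and none higher at an adjusted p under 0.05. The 32 were chosen by values of the same 40 ppb arrays, so the counts and p-values of called genes here are descriptive. anxa1a read 6.99 and 7.26 at 100 ppb against 7.90 and 7.83 at 40 ppb, a difference of -0.74 ± 0.13 (adjusted p = 0.0236), and krt18b differed by -0.95 ± 0.16 (adjusted p = 0.0257). si:ch73-380l3.2 was below the tag controls at 100 ppb and at least 3.54-fold lower there (adjusted p = 0.000235). For cyp1a the 100 ppb pool exceeded the 40 ppb pool by 0.90 ± 0.32 without passing (adjusted p = 0.288). ddx52, which fell at 40 ppb, read 7.11 and 7.29 at 100 ppb, higher than at 40 ppb by 1.07 ± 0.17 (adjusted p = 0.02). f13a1b, a coagulation factor XIII subunit gene, differed by -1.42 and -1.86 on its tested probe sets, the apolipoprotein gene apoeb by -1.65 and hbaa1 by -1.41, while the prostaglandin D synthase gene ptgdsb.1 was higher by 1.57 and the inhibitor of differentiation gene id3 by 1.45. Without 40 ppb replicate 1 or 2 the call count was 20 and 10, without 100 ppb replicate 1 or 2 it was 10 and 15, and in the deposited scaling it was 4.

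Against the 10 ppb pool 91 probe sets (0.978%) were called, 28 higher and 63 lower (0.677%) at 40 ppb, and 137 (1.47%) passed the adjusted p alone, 80 of them lower (0.86%). Of the 32 probe sets called against control, 9 were lower at 40 than at 10 ppb and 3 higher. Most of the 32 were chosen for low values on these same 40 ppb arrays, which favours lower results here. The counts and p-values of called genes are therefore descriptive here too. anxa1a lay at 8.96 and 8.88 at 10 ppb, so that its 40 ppb mean differed by -1.06 (adjusted p = 0.00208). tcnbb differed by -1.74 (adjusted p = 0.00413), tmsb1 by -1.18 (adjusted p = 0.00951) and krt4 by -0.96 (adjusted p = 0.0302). anxa2a, krt8, krt94, pkp1b and tm4sf21a were also lower. hsd17b10 read 8.25 and 8.14 at 10 ppb, and its difference of -1.16 from there to 40 ppb passed (adjusted p = 0.00142). si:ch73-380l3.2, below the tag controls at 10 ppb as well, was at least 3.78-fold higher at 40 ppb (adjusted p = 0.00021). The calls lower at 40 than at 10 ppb included the liver genes tfa (-4.66) and bhmt (-4.31), a methyltransferase gene. Against the shared control the 10 liver markers had a median difference of 3.44 at 10 ppb and -0.39 at 40 ppb, and the part of these transcripts in the 63 lower calls was not tested. Higher at 40 ppb were vtg4 (1.78), the kinase gene stk3 (1.81) and gbgt1l4 (1.82). The 10 ppb arrays differed at least 2-fold at 190 tested probe sets, against 20 for control and 9 for 40 ppb. Without 40 ppb replicate 1 or 2 the count was 36 and 42, and without 10 ppb replicate 2 it was 156.

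The 28 lowered probe sets were chosen for low 40 ppb values against the control pool that all doses share. Their median differences of -0.81 at 10 ppb, -1.27 at 40 ppb and -1.57 at 100 ppb are therefore a description only. The pool means of cyp1a were 5.45, 7.93, 8.58 and 9.48 from 0 to 100 ppb, and those of anxa1a 9.76, 8.92, 7.86 and 7.12. tagln2 had differences of -1.09, -1.16 and -0.93, and kcnn1b -0.56, -2.31 and -1.15, at 10, 40 and 100 ppb.

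**Figure D5:**
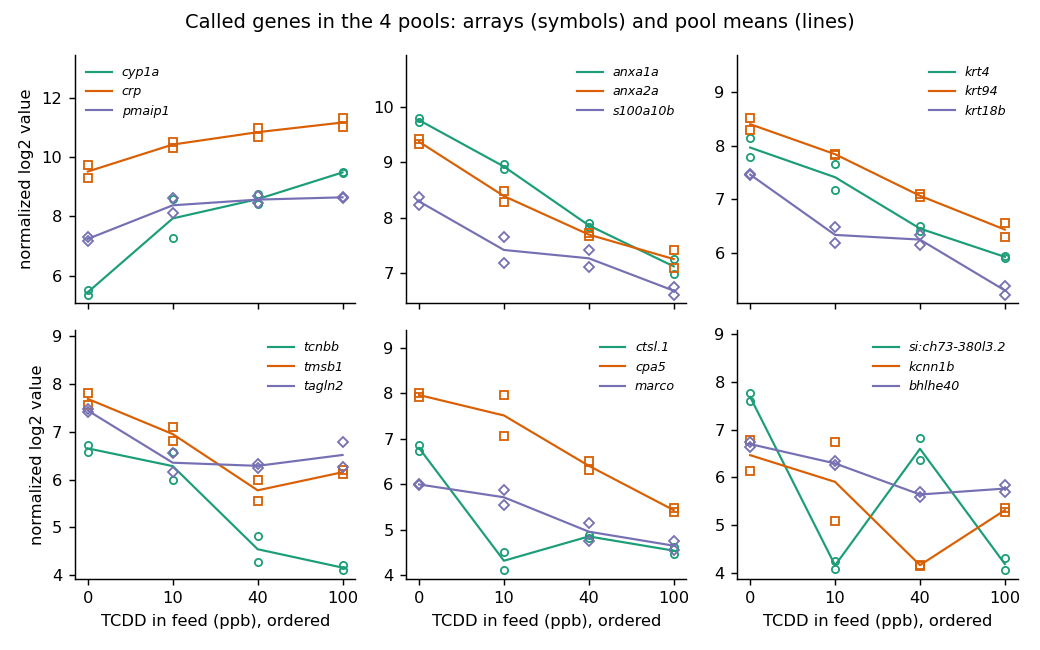
Normalized log2 value (y, own scale in each panel) of 18 called genes in the 4 pools, with doses in order and not to scale (x), symbols for single arrays and lines through pool means. The pool means of cyp1a are higher and those of anxa1a lower at each next dose, although the cyp1a steps from 10 to 40 and from 40 to 100 ppb did not pass, and si:ch73-380l3.2 reads higher at 40 ppb than at 10 or 100 ppb.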

How the data were processed

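Each array has a deposited intensity for every probe set, a MAS5 signal per the submitters' processing notes, whose version and scaling the sources used here do not state. Settings files of the instrument (other values, per the file headers) served only to group arrays by scan day. The 115 control probe sets were set aside. Of the other 15502, 10795 had 1 gene symbol in the platform annotation, 135 several and 4572 none; only the first are named. Values were log2(intensity + 16), quantile normalized over 8 arrays. Testing was limited to probe sets whose mean exceeded the 40th percentile (5.11) and used limma 3.58.1 in R 4.3.3 (lmFit on 4 pool means, eBayes with a trend, Benjamini-Hochberg), with residual degrees of freedom of 4, or 10.5 with the prior. A call needs an adjusted p under 0.05 and a difference of at least 1. A pool below the 95th percentile of 17 tag controls on both arrays gives a bound: the mean of the brighter pool is set against a floor for each dim array, its own value or the lowest one above that percentile, whichever is greater. Except for 10 ppb replicate 1, alone on its day, arrays with the same replicate number share a scan day, per the file headers, and same-day arrays deviated together (r of 0.214 for 40 with 0 ppb, 0.143 for 100 with 0 ppb and 0.298 for 100 with 40 ppb), so scan day was also fitted as a replicate block.

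The comparison, its 29 gene lists and the cell type markers were chosen with earlier results of these data known, and symbols that matched a list by spelling alone were dropped. Lists use 1 probe set per gene, the brightest. The genes named are those called with 1 symbol and their other probe sets, and those with 1 symbol that passed under the minimum difference. Also named are passing and leading list members, tested aryl hydrocarbon receptor genes and the largest calls between exposed pools. Genes given as examples of lists or of calls that the block adds were chosen after their values were seen. The fit was tried on simulated arrays with independent noise and the same spread in every pool. These held no shared scan day and no noisier pool, so they cannot show how the fit handles either. Depth does not apply to arrays, and their number limits the precision.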

Additional observations from a re-analysis of the deposited data

Results flagged for a closer look

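The array carries 7 control probe sets annotated to a zebrafish gene, which the comparisons do not use. The 4 for actc1b, a cardiac alpha actin gene, read above the control pool on both 40 ppb arrays. The largest difference was 0.70, at 6.06 and 6.38 in the control pool against 6.97 and 6.87 at 40 ppb, and the others were 0.35, 0.29 and 0.10. These differences were not tested, and 24.5% of all tested probe sets lay above the control pool in this way.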

How the results depend on the processing

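All 32 called probe sets kept their direction in each alternative that tested them. Only another normalization, scaling or pseudocount could have turned it, because the pools of all 32 did not overlap on the main values. Of the 92 probe sets followed by name, 7 changed sign somewhere, all of them not called: in the deposited scaling 2 probe sets of zgc:173856 (0.376 and 0.471), cyp17a1 (0.0341), hsp90ab1 (0.0963), nqo1 (0.0877) and ptges3a (0.115), and with trimmed mean scaling the same 2 of zgc:173856 (0.207 and 0.302). Leaving out single arrays also turned signs, within ranges of -0.093 to 0.0298 for zgc:173856, -0.0994 to 0.414 for epcam, -0.187 to 0.148 for nqo1 and -0.168 to 0.0512 for ptges3a. For 40 against 0 ppb the calls (higher, lower) were 4 (1, 3) in the deposited scaling, where 4 passed the adjusted p alone, 52 (9, 43) with quantile normalization over the 4 arrays, where 171 passed it, 15 (3, 12) with a pseudocount of 64, 15 (3, 12) with a filter at the 60th percentile, where 31 passed it, 57 (11, 46) with no minimum difference, 9 (1, 8) with treat at 0.5, where 9 passed, and 4448 (2277, 2171) by pools that do not overlap, a rule added after seeing the data. Under the adjusted p alone 37 passed with no filter, 153 in the fit of 4 arrays, 223 without the 10 ppb pool and 432 with the replicate block, against 57. Leaving out single arrays gave 7 to 42 calls (0 to 5 higher, 6 to 37 lower) and 7 to 229 past the adjusted p alone; with the 0 calls higher without 40 ppb replicate 1, limma's unadjusted p was under 0.05 for 707 probe sets in either direction. A pool left with 1 array is assumed there to vary like the others. For 100 against 40 ppb the calls were 4 (0, 4) in the deposited scaling and 20 (8, 12) with the 60th percentile, 38 lower with the replicate block, and 10 to 20 (1 to 9 higher, 9 to 13 lower) without single arrays. For 40 against 10 ppb they were 32 (13, 19) with the 60th percentile, 11 higher in the deposited scaling, 57 higher with the replicate block, and 36 to 156 (11 to 48 higher, 25 to 116 lower) without single arrays. The cause of these changes was not tested, except that fewer probe sets were tested under the stricter filter. The paired values that alter a call stand in the report, and the block ended none of the 32 calls. Leaving out probe sets below the tag controls in both pools, an alternative added after seeing the data, removed none. Dim probe sets are limited by their signal over the tag controls.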
